A study of Mus musculus with 68 samples.

Results

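The cytosolic heat shock chaperones were followed as 9 genes, Hspa1a, Hspa1b, Hsph1, Dnajb1, Hspa8, Hsp90aa1, Hsp90ab1, Bag3 and Hspb1, taken by symbol from a table of RNA-seq counts in mouse lung. All 9 of 9 were present among 23872 genes with a value in every library, and all 9 passed the filter on low counts that left 17500 genes to test. The lungs came from male wild-type mice of a wild-derived inbred strain, CAST/EiJ, and of a common laboratory strain, C57BL/6J, bought from a commercial breeder. Animals of each strain were exposed to 1,3-butadiene (BD), a volatile chemical used in making synthetic rubber, or breathed clean air. BD was given for 6 h a day on weekdays over 2 weeks. No agent or allele other than strain and BD was named in the labels, and the age of the animals was not given. The 24 libraries comprised 6 labelled CAST/EiJ BD, 7 CAST/EiJ clean air, 6 C57BL/6J BD and 5 C57BL/6J clean air. Libraries are called here by the number in their titles, such as 7, or RNA_106.

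Heat shock chaperones bind unfolded or partly folded proteins, hold them in solution and pass them on for folding or degradation. HSP70 proteins grip a client in cycles of ATP hydrolysis that J proteins start and nucleotide exchange factors end, and HSP90 dimers complete the maturation of kinases and steroid receptors. When unfolded protein accumulates, the transcription factor HSF1 is released from chaperones, forms trimers and binds heat shock elements, which are inverted repeats of a GAA unit, in the promoters of chaperone genes. In whole lung, chaperone mRNA comes from all resident cell types, and fewer cells of a type and less RNA per cell cannot be told apart in bulk samples.

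Library totals lay between 10597990 and 50001571 counts. At these depths the least counted member, Hspa1b, had 33 to 4989 counts and Hspa8 had 4019 to 68004 counts. Levels are given as CPM, counts scaled to 1000000 per library after adjustment by the trimmed mean of M values (TMM), and because gene lengths were not used they are compared between libraries and never between genes. Genes of lung epithelium were abundant in every library, with summed levels of 22425 to 35862 CPM over 10 markers, none of which was at 0 throughout any group. The labels name no litter, day or batch, so the p-values measure the spread between these libraries, which may be partly technical.

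A pair of libraries was kept apart from the group means, a choice made with their values known, and results are given without and with them. On a strain index, the median over 258 strain-specific genes scaled to 0 in clean-air C57BL/6J and 1 in clean-air CAST/EiJ, the library labelled CAST/EiJ BD number 8 stood at 0.0568. The other 5 CAST/EiJ BD libraries stood between 0.974 and 1.01, and the 6 C57BL/6J BD libraries between 0.0431 and 0.0746. Library RNA_106, labelled C57BL/6J clean air, stood at 0.0454, near its label, and was kept apart for its chaperone levels described below. Numbers over 100 were carried by 5 of the 7 CAST/EiJ clean-air libraries, by RNA_106 and by no BD library. What this number series marks is not given in the labels.

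The promoters of Hspa1a, Hspa1b, Hsph1 and Hspb1 are shown because they were the members found to hold a match to the inverted GAA repeat and because Hspa1a and Hspa1b are near-identical copies. RefSeq promoter sequences (build GRCm38.p6) were matched for 6 of 9 members, and Hspa8, Hsp90aa1 and Hsp90ab1 are named only. The 120 bases before the annotated start are printed 5′ to 3′ on the strand of the gene, and capitals mark each match to GAANNTTC or TTCNNGAA. Hspa1a lies at chr17:34972157-34972276 on the minus strand, Hspa1b at chr17:34959239-34959358 on the minus strand, Hsph1 at chr5:149636337-149636456 on the minus strand and Hspb1 at chr5:135887799-135887918 on the plus strand.
Hspa1a: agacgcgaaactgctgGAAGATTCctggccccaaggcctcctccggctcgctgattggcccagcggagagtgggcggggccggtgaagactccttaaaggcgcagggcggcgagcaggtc
Hspa1b: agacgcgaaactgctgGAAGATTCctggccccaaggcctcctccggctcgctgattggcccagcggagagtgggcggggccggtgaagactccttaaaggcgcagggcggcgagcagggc
Hsph1: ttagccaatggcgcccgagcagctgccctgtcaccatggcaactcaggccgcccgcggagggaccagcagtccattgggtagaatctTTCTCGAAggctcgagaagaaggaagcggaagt
Hspb1: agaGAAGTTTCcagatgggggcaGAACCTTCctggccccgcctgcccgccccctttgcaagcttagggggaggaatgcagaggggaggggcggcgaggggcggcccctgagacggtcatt

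Hspa1a and Hspa1b were identical at 247 of the 250 positions before their starts when aligned without gaps, and the match stood at the same distance from the start in both. The Hsph1 match began 33 bases before the first of its 2 annotated starts, and Hspb1 held 2 matches. Within 250 bases, no match was found for Dnajb1 at either of its 2 starts or for Bag3. Each pattern is its own reverse complement, so both strands were covered. A match to either pattern was held by 12.8% of all 32851 promoters in the table. The longer patterns GAANNTTCNNGAA and TTCNNGAANNTTC, reverse complements of each other that contain the shorter ones, were held by 0.466% of promoters and by 0 of the 6 members. These matches describe letters in a window and do not show binding. Only exact patterns within 250 bases were sought, so a missing match does not show that a gene lacks a heat shock element.

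Hspa1a and Hspa1b encode the stress-inducible HSP70, which has little expression in unstressed tissue. Hspa1a was measured at 5.93, 4.38, 4.90, 64.4 and 72.5 CPM in CAST/EiJ BD libraries 7, 9, 10, 11 and 12. In the 7 CAST/EiJ clean-air libraries its lowest, median and highest levels were 9.55, 16.7 and 27.0 CPM. In the 6 C57BL/6J BD libraries they were 3.07, 7.18 and 25.2 CPM. In C57BL/6J clean-air libraries 3, 4, 5 and 6 Hspa1a was at 4.29, 7.52, 8.94 and 8.01 CPM. Libraries 11 and 12 stood above every clean-air CAST/EiJ library, and libraries 7, 9 and 10 stood below all of them, so the BD group lay on both sides of its control. Within CAST/EiJ BD the highest Hspa1a level was 16.6 times the lowest, and within CAST/EiJ clean air 2.83 times.

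Hspa1b was likewise high in libraries 11 and 12 and low in the other 3, at 6.86, 5.35, 4.62, 70.9 and 82.4 CPM in CAST/EiJ BD libraries 7, 9, 10, 11 and 12, against 10.2, 17.9 and 32.6 CPM (lowest, median and highest) in CAST/EiJ clean air. In C57BL/6J its lowest, median and highest levels were 4.27, 7.41 and 29.0 CPM under BD. It was at 2.44, 6.88, 9.74 and 8.36 CPM in C57BL/6J clean-air libraries 3, 4, 5 and 6. The count ratio of Hspa1a to Hspa1b was 0.818 to 1.06 in CAST/EiJ BD, 0.821 to 1.03 in CAST/EiJ clean air, 0.681 to 1.07 in C57BL/6J BD and 0.918 to 1.76 in C57BL/6J clean-air libraries 3 to 6. How reads that match both copies were counted is not given in the sources used here, so the split between the pair is uncertain. Their counts were therefore also summed, and the sum passed the test in 0 of the 5 comparisons described below (edgeR quasi-likelihood test, Benjamini-Hochberg adjusted p 0.0845 to 0.966).

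**Figure D1:**
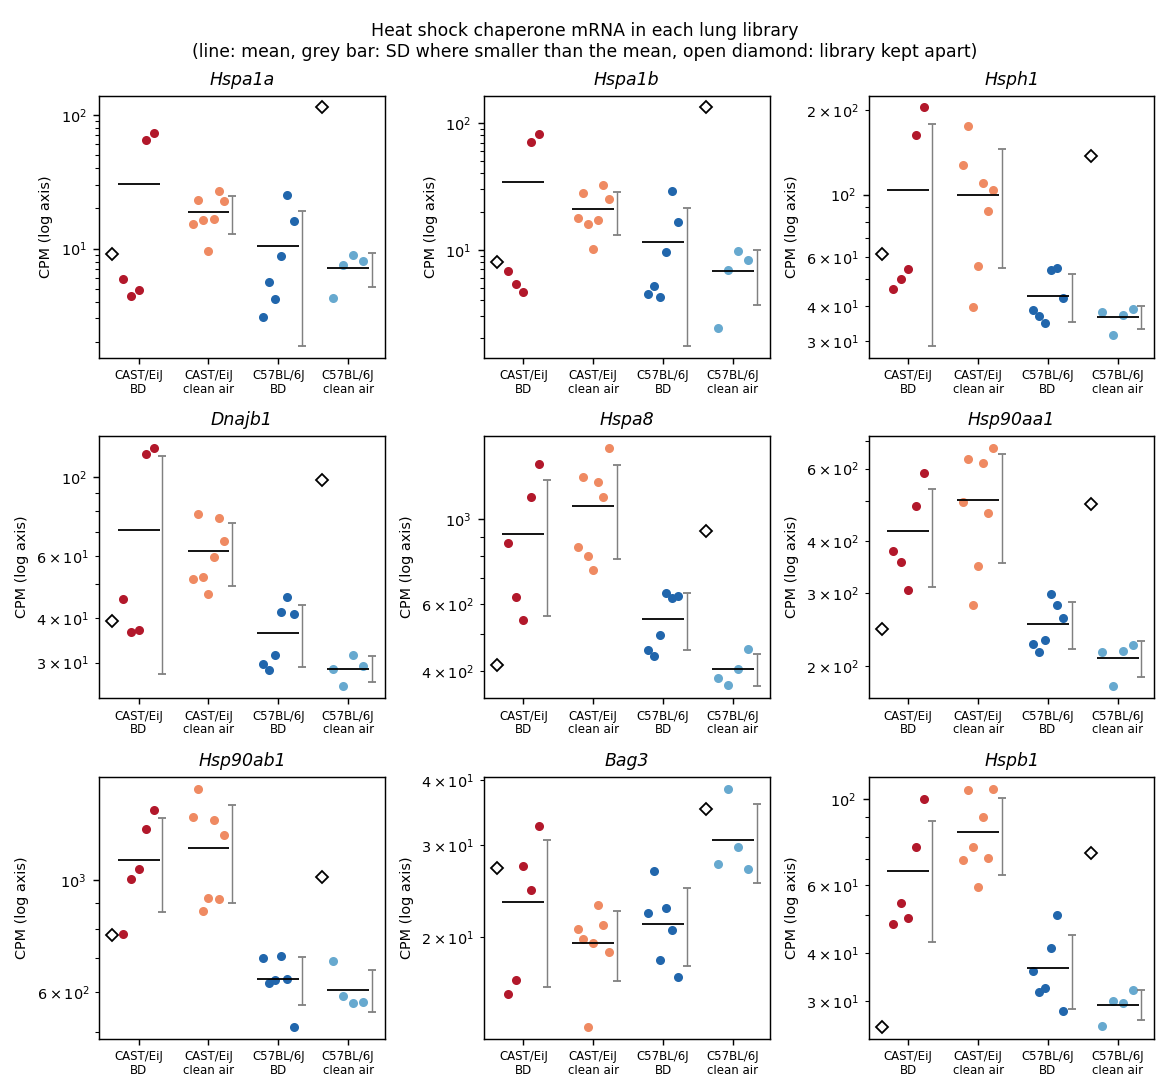
CPM on a log axis of each of the 9 chaperone genes in every library, by strain and exposure. Points are libraries, black lines group means, grey bars SD where it is smaller than the mean, and open diamonds library 8 and RNA_106, which are not in the means. Hspa1a and Hspa1b in CAST/EiJ BD split into 2 libraries at 64.4 CPM or more and 3 at 6.86 CPM or less, and RNA_106 stood above all others for both genes.

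Hsph1 and Dnajb1, partners of HSP70, varied together with the inducible pair from library to library. Hsph1, the HSP110 nucleotide exchange factor of HSP70, was at 46.1, 50.1, 54.4, 164 and 205 CPM in CAST/EiJ BD libraries 7, 9, 10, 11 and 12. Its lowest, median and highest levels were 39.8, 103.6 and 176 CPM in CAST/EiJ clean air. They were 34.9, 40.8 and 54.7 CPM in C57BL/6J BD, and C57BL/6J clean-air libraries 3, 4, 5 and 6 held 38.3, 31.6, 37.1 and 39.2 CPM. Dnajb1, the J protein HSP40 that stimulates the ATPase of HSP70, was at 45.2, 36.5, 37.0, 116 and 121 CPM in CAST/EiJ BD libraries 7, 9, 10, 11 and 12. Its lowest, median and highest levels were 46.8, 59.7 and 78.5 CPM in CAST/EiJ clean air and 28.6, 36.3 and 45.9 CPM in C57BL/6J BD. In C57BL/6J clean-air libraries 3, 4, 5 and 6 it was at 28.8, 25.8, 31.5 and 29.4 CPM. For both genes every clean-air CAST/EiJ library stood above every one of these 4 clean-air C57BL/6J libraries, and the libraries of the BD groups overlapped with those of their own clean-air groups.

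Hspa8 encodes HSC70, the constitutive HSP70. It was at 869, 624, 544, 1142 and 1395 CPM in CAST/EiJ BD libraries 7, 9, 10, 11 and 12. Its lowest, median and highest levels were 735, 1141 and 1538 CPM in CAST/EiJ clean air and 438, 560.1 and 639 CPM in C57BL/6J BD. In C57BL/6J clean-air libraries 3, 4, 5 and 6 it was at 384, 368, 405 and 457 CPM. In clean air the CAST/EiJ libraries stood above C57BL/6J libraries 3 to 6, but RNA_106, at 931 CPM, was inside the CAST/EiJ range. Under BD the CAST/EiJ libraries 9 and 10 lay inside the C57BL/6J range.

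Hsp90aa1 encodes the inducible cytosolic HSP90. It was at 379.6, 356, 306, 486 and 587 CPM in CAST/EiJ BD libraries 7, 9, 10, 11 and 12, and its lowest, median and highest levels were 280.4, 499.6 and 673 CPM in CAST/EiJ clean air. They were 216, 246 and 298 CPM in C57BL/6J BD, and C57BL/6J clean-air libraries 3, 4, 5 and 6 held 216, 179, 217 and 225 CPM. Hsp90ab1 encodes the constitutive cytosolic HSP90. It was at 782, 1004, 1055, 1265 and 1380.0 CPM in CAST/EiJ BD libraries 7, 9, 10, 11 and 12, and its lowest, median and highest levels were 869, 1228 and 1521 CPM in CAST/EiJ clean air. They were 512, 635 and 706 CPM in C57BL/6J BD, and C57BL/6J clean-air libraries 3, 4, 5 and 6 held 692, 588, 571 and 573 CPM. For both HSP90 genes the 5 CAST/EiJ BD libraries stood above the 6 C57BL/6J BD libraries, and the 7 CAST/EiJ clean-air libraries above C57BL/6J libraries 3 to 6. RNA_106 was inside the CAST/EiJ clean-air range for both.

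Hspb1 encodes HSP27 (HSP25 in mice), a small heat shock protein that holds unfolded clients without ATP and is abundant in muscle. It was at 47.4, 54.0, 49.1, 75.1 and 100.2 CPM in CAST/EiJ BD libraries 7, 9, 10, 11 and 12. Its lowest, median and highest levels were 59.4, 75.1 and 107 CPM in CAST/EiJ clean air and 28.3, 34.2 and 50.2 CPM in C57BL/6J BD. C57BL/6J clean-air libraries 3, 4, 5 and 6 held 25.8, 30.0, 29.6 and 32.0 CPM. Bag3, a cochaperone that releases clients from HSP70 and directs them to autophagy, showed another order. It was at 15.5, 16.5, 27.4, 24.6 and 32.7 CPM in CAST/EiJ BD libraries 7, 9, 10, 11 and 12, and its lowest, median and highest levels were 13.4, 19.8 and 23.01 CPM in CAST/EiJ clean air. They were 16.7, 21.4 and 26.8 CPM in C57BL/6J BD, and C57BL/6J clean-air libraries 3, 4, 5 and 6 held 27.6, 38.6, 29.7 and 27.0 CPM, above the ranges of CAST/EiJ clean air and C57BL/6J BD.

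Library RNA_106 carried 8 of the 9 members above all 4 other C57BL/6J clean-air libraries. Its Hspa1a level was 113 CPM and its Hspa1b level 132 CPM, higher than in any of the other 23 libraries. Hsph1 was at 138 CPM, Dnajb1 at 98.4 CPM, Hspa8 at 931 CPM, Hsp90aa1 at 493 CPM, Hsp90ab1 at 1016 CPM and Hspb1 at 72.3 CPM. Bag3, at 35.3 CPM, was inside the range of the other 4. For how many of all tested genes RNA_106 stood above these 4 libraries was not counted. Its levels are therefore not shown to be particular to the members. The library labelled CAST/EiJ BD number 8 held Hspa8 at 415 CPM, Hsp90aa1 at 245 CPM, Hsp90ab1 at 777 CPM and Hspb1 at 25.7 CPM, each below all 5 other libraries of that label. Its Hspa1a level of 9.06 CPM, Hspa1b level of 8.06 CPM, Hsph1 level of 61.3 CPM, Dnajb1 level of 39.4 CPM and Bag3 level of 27.1 CPM were inside their range.

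**Figure D2:**
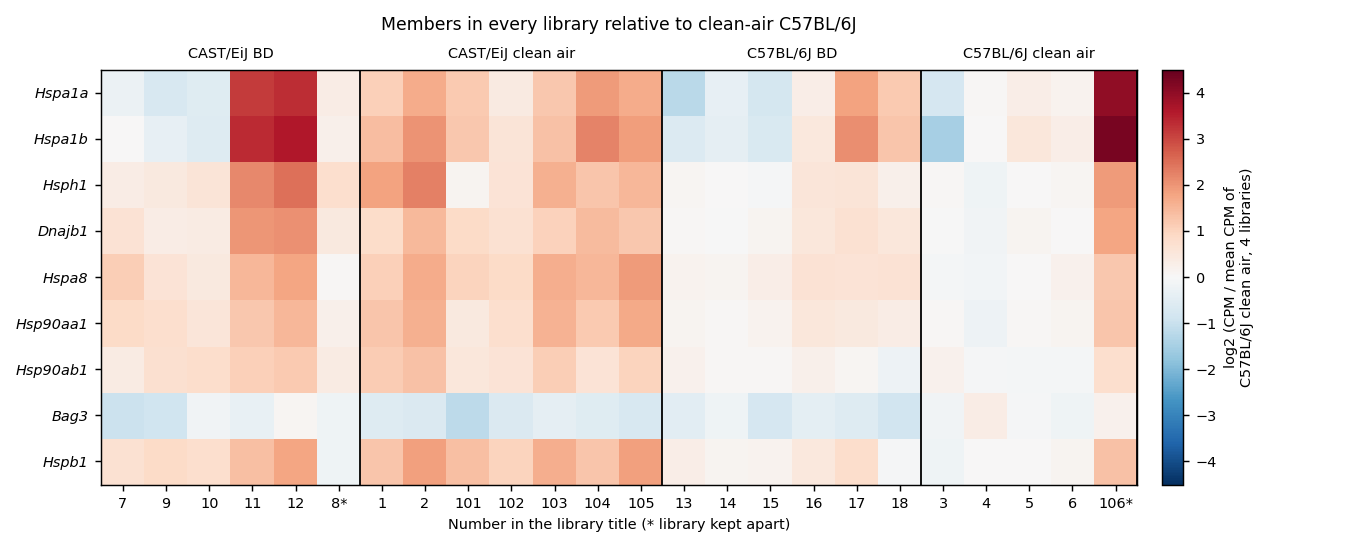
Colour gives the log2 ratio of each member's CPM in each library to its mean in C57BL/6J clean-air libraries 3 to 6, with title numbers along the bottom and the libraries kept apart marked by an asterisk. Libraries 11, 12 and RNA_106 were highest for Hspa1a and Hspa1b, all 7 clean-air CAST/EiJ columns were above 0 for 8 members, and Bag3 was below 0 in all 7.

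Summed levels of 14 basal and squamous epithelium markers also differed between libraries. They were 1890.1, 602, 37.6, 2476 and 895 CPM in CAST/EiJ BD libraries 7, 9, 10, 11 and 12, 56.8 to 2331 CPM in CAST/EiJ clean air and 42.5 to 1209 CPM in C57BL/6J BD. In C57BL/6J clean air they were 1736 CPM in RNA_106 and 36.5 to 54.1 CPM in libraries 3 to 6, where Sprr3 was at 0 in every library. The libraries highest in Hspa1a (11, 12 and RNA_106) were all well supplied with these markers, and library 17 held 868 CPM with Hspa1a at 25.2 CPM. Libraries 7, 13, RNA_101 and RNA_102 held 1890.1, 1209, 2331 and 2207 CPM with Hspa1a at 5.93, 3.07, 16.4 and 9.55 CPM. Libraries 18 and RNA_104 held 47.5 and 65.8 CPM with Hspa1a at 16.1 and 27.0 CPM. The part of these cells in the chaperone levels was not tested.

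Over the 22 libraries, the standard deviation of log2 CPM within groups was 1.20 for Hspa1a, 1.24 for Hspa1b, 0.66 for Hsph1, 0.47 for Dnajb1 and 0.38 for Hspa8. It was 0.35 for Hsp90aa1, 0.33 for Hspb1, 0.31 for Bag3 and 0.26 for Hsp90ab1, against a median of 0.20 over all tested genes. The members did not vary independently. As deviations from group means over these 22 libraries, Hspa1a correlated with Hspa1b (Pearson r = 0.98) and with Dnajb1 (r = 0.93), and Hsph1 with Dnajb1 (r = 0.83), with Spearman rho of 0.98, 0.94 and 0.80. Bag3 correlated with Hspa1a at r = 0.34 (rho = 0.25) and with Hsp90ab1 at r = 0.59 (rho = 0.51). These correlations share libraries and scaling and are given as a description.

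The genes whose deviations were most like the mean of the 9 members were sought among the 15761 other genes that averaged 1 CPM or more. They were Stip1 (Pearson r = 0.91, Spearman rho = 0.93), Ccdc117 (r = 0.91, rho = 0.87), Dnaja1 (r = 0.91, rho = 0.87), Chordc1 (r = 0.90, rho = 0.89), P4ha1 (r = 0.89, rho = 0.85) and Ahsa2 (r = 0.88, rho = 0.84), each over 22 libraries. Stip1 encodes HOP, which hands clients from HSP70 to HSP90, Dnaja1 is a J protein of HSP70, Chordc1 is an HSP90 cochaperone and P4ha1 is a collagen prolyl hydroxylase. Without libraries 11 and 12, r over the other 20 was between 0.82 and 0.88 for these 6 genes. The deviations were still taken from group means that included libraries 11 and 12. These values therefore cannot show a likeness apart from those libraries. Dnaja1 reached 200 and 204 CPM in CAST/EiJ BD libraries 11 and 12 and 214 CPM in RNA_106, against at most 160 CPM in clean-air CAST/EiJ.

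The first comparison asked how chaperone expression responded to BD in C57BL/6J, in 6 BD and 4 clean-air libraries. None of the 9 members passed an adjusted p of 0.05, where 13.2% of the 17500 tested genes did (edgeR quasi-likelihood, Benjamini-Hochberg), 5.25% higher and 7.94% lower. One member, Bag3, had an unadjusted p under 0.05, and DESeq2 called 1 member, also Bag3. The median log2 fold change of the members was 0.31, against 0.0029 over all tested genes. Hspa8 averaged 547 ± 93.5 CPM under BD (SD, n = 6) and 404 ± 38.6 CPM in clean air (SD, n = 4), a log2 fold change of 0.43 ± 0.24 (SE) with edgeR adjusted p = 0.244. With only these 2 groups in the fit, that value passed (edgeR adjusted p = 0.0272). The 95% intervals of the fold changes ran between 0.463 and 4.49 for Hspa1a and between 0.833 and 1.31 for Hsp90ab1, so that the interval was wide for the inducible gene and narrow for the constitutive one. With all 24 libraries the median log2 fold change of the members was -0.25, since RNA_106 then stood among the clean-air controls, and 7 of the 8 positive values turned negative.

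Bag3 averaged 21.2 ± 3.62 CPM under BD (SD, n = 6) and 30.7 ± 5.38 CPM in clean air (SD, n = 4) in C57BL/6J. The ranges did not overlap, as was so for 8.21% of tested genes in the lower direction. The log2 fold change was -0.54 ± 0.18 (SE), with edgeR adjusted p = 0.0522, and the call was made in 11 of 33 alternatives (edgeR or DESeq2 adjusted p 0.0145 to 0.227). It was called with all 24 libraries, as were 7.47% of tested genes (log2 fold change -0.58, edgeR adjusted p = 0.0349). Summed levels of 14 immediate early genes, which respond within minutes to stimulation or handling, were 225 to 367 CPM in these BD libraries. They were 361, 861, 644 and 550.5 CPM in clean-air libraries 3, 4, 5 and 6, in which Bag3 stood at 27.6, 38.6, 29.7 and 27.0 CPM. Of these 14 genes 10 fell under BD and none rose, and 5 fell when clean-air library 4 was left out. Summed levels of 7 B cell markers were 54.5 to 143 CPM under BD and 203 to 287 CPM in clean air, and all 7 fell. The part of either in the Bag3 level was not tested.

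In CAST/EiJ, 5 BD libraries were set against 7 clean-air libraries. None of the 9 members passed, where 10.8% of tested genes did (5.46% higher and 5.35% lower), 0 members had an unadjusted p under 0.05, and DESeq2 called 0 (edgeR quasi-likelihood and DESeq2 with Benjamini-Hochberg adjustment). The median log2 fold change of the members was 0.061, against -0.019 over all tested genes. Of the 7 clean-air libraries 5 carry numbers over 100, and no BD library does. With those left out the member median was -0.23, no member passed, and far fewer genes were called, as given below. Hspa1a averaged 30.4 ± 34.8 CPM under BD (SD, n = 5) and 18.7 ± 5.90 CPM in clean air (SD, n = 7), so that its SD exceeded its mean. Its log2 fold change was 0.73 ± 0.66 (SE), with an edgeR adjusted p = 0.489. Hspb1 averaged 65.2 ± 22.5 CPM under BD (SD, n = 5) and 82.4 ± 18.6 CPM in clean air (SD, n = 7), a log2 fold change of -0.33 ± 0.19 (SE) with edgeR adjusted p = 0.237. The 95% interval of the fold change was 0.772 to 1.16 for Hsp90ab1 and 0.606 to 1.04 for Hspb1. Adding the library labelled number 8 gave a member median of -0.041 with all 24 libraries and called no member, where 13.8% of tested genes were called.

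The strain comparison in clean air set 7 CAST/EiJ libraries against 4 C57BL/6J libraries. Reads of both strains were aligned to the same genome build, mm9. The part of sequence differences between the strains in the counts was not tested, here or under BD. Of 9 members 6 were higher in CAST/EiJ and 1 was lower, where 61.5% of tested genes were called, 30.2% higher and 31.3% lower. Hspb1 averaged 82.4 ± 18.6 CPM in CAST/EiJ (SD, n = 7) and 29.3 ± 2.60 CPM in C57BL/6J (SD, n = 4), 2.76-fold higher in CAST/EiJ (edgeR adjusted p = 5.64e-06). Hspa8 averaged 1086 ± 299 CPM in CAST/EiJ (SD, n = 7) and 404 ± 38.6 CPM in C57BL/6J (SD, n = 4), 2.65-fold higher (edgeR adjusted p = 3.73e-05). Hsp90aa1 was 2.37-fold higher and Hsp90ab1 1.88-fold higher in CAST/EiJ (edgeR adjusted p = 3.12e-05 and 3.29e-05). Hsph1 was 2.69-fold higher and Dnajb1 2.10-fold higher (edgeR adjusted p = 0.00812 and 0.00513). Bag3 averaged 19.4 ± 2.99 CPM in CAST/EiJ (SD, n = 7) and 30.7 ± 5.38 CPM in C57BL/6J (SD, n = 4), 1.60-fold lower in CAST/EiJ (edgeR adjusted p = 0.00210). Hspa1a and Hspa1b were 2.54-fold and 2.98-fold higher but did not pass (edgeR adjusted p = 0.142 and 0.102). With only these 2 groups in the fit both passed (edgeR adjusted p = 0.00116 and 0.00542), and DESeq2 called Hspa1b (adjusted p = 0.0417).

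With C57BL/6J libraries 3 to 6, the ranges of the strains in clean air did not overlap, with 8 members higher in CAST/EiJ, where 20.2% of tested genes were higher without overlap, and Bag3 lower, where 21.1% were. This separation followed from keeping RNA_106 apart for its chaperone levels: with it, the ranges of those 8 members overlapped and that of Bag3 did not. With all 24 libraries Hspa8, Hsp90aa1, Hsp90ab1, Hspb1 and Bag3 passed, and Hsph1 and Dnajb1 did not (edgeR adjusted p = 0.135 and 0.230), where 59.4% of tested genes passed. The log2 fold change of Hspa1a was then -0.65, because RNA_106 was averaged with libraries 3 to 6. With the libraries numbered over 100 left out, numbers 1 and 2 stood for CAST/EiJ, 6 members were called higher and Bag3 did not pass (log2 fold change -0.60, edgeR adjusted p = 0.0732), nor did Bag3 with the number series as a covariate (edgeR adjusted p = 0.0629). Summed levels of 8 smooth muscle markers were 1368 to 2938 CPM in CAST/EiJ and 847 to 978 CPM in C57BL/6J in clean air, and 7 of the 8 were called higher and 1 lower in CAST/EiJ. Those of 7 B cell markers were 28.0 to 117 CPM in CAST/EiJ and 203 to 287 CPM in C57BL/6J, and all 7 were called lower. Those of 7 neutrophil and macrophage markers were 1573 to 3589 CPM in CAST/EiJ and 498 to 611 CPM in C57BL/6J, with 5 called higher, and those of 8 T and NK cell markers were 10.45 to 19.9 CPM and 50.2 to 66.6 CPM in the same groups, with 7 called lower. Of the 14 basal and squamous epithelium markers 9 were called higher in CAST/EiJ, and of the 10 lung epithelium markers 6 higher and 1 lower. With all 24 libraries 1 basal and squamous marker was called higher, and the calls of the other marker lists named here kept their number. With the numbers over 100 left out, 5 basal and squamous and 2 neutrophil and macrophage markers were called higher. Of the lung epithelium markers 1 was then higher and 2 lower. Smooth muscle markers kept 7 higher, and 6 B cell and 7 T and NK cell markers stayed lower. In CAST/EiJ, 6 liver markers summed to 128 and 1479 CPM in libraries 1 and 2 and 4.68 to 10.7 CPM in RNA_101 to RNA_105. Their sums were 23.4 to 370 CPM in C57BL/6J libraries 3 to 6. Sums of 10 striated muscle markers were 3112 and 2165 CPM in libraries 1 and 2, and 762 to 2185 CPM in RNA_101 to RNA_105. They were 696 to 2026 CPM in C57BL/6J libraries 3 to 6. The part of these cell types in the strain difference was not tested.

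**Figure D3:**
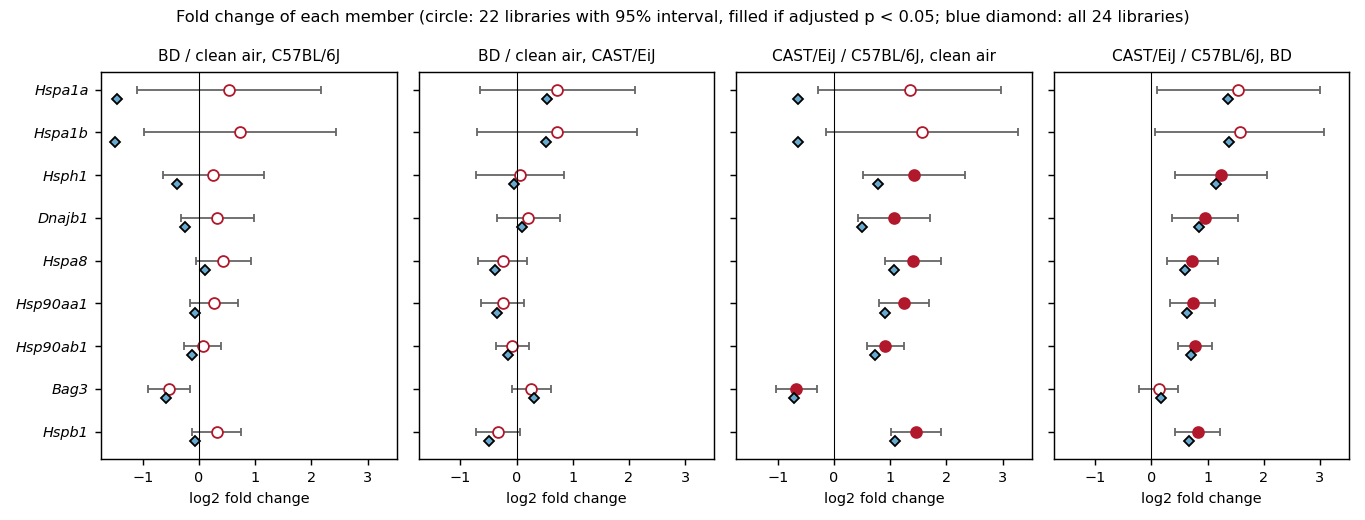
Log2 fold change of each member in 4 comparisons, with CAST/EiJ over C57BL/6J or BD over clean air. Circles are values from 22 libraries with 95% intervals, filled where adjusted p was under 0.05, and blue diamonds are values with all 24 libraries. Strain differences in clean air passed for 7 members, and diamonds of Hspa1a and Hspa1b crossed to the other side of 0 in clean air.

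Under BD, 5 CAST/EiJ libraries were set against 6 C57BL/6J libraries. Of 9 members 6 were higher in CAST/EiJ and 0 were lower, where 43.7% of tested genes were called, 20.9% higher and 22.7% lower. Hsp90ab1 averaged 1097 ± 233 CPM in CAST/EiJ (SD, n = 5) and 635 ± 69.9 CPM in C57BL/6J (SD, n = 6), 1.71-fold higher (edgeR adjusted p = 0.000164). Hsp90aa1 was 1.66-fold higher (edgeR adjusted p = 0.00377) and was the other member whose ranges did not overlap, where 14.4% of tested genes were higher without overlap. With library 8 included as labelled, the ranges of Hsp90aa1 overlapped. Hspb1 was 1.77-fold, Hspa8 1.66-fold and Dnajb1 1.94-fold higher (edgeR adjusted p = 0.00152, 0.00967 and 0.00893). Hsph1 was 2.36-fold higher (edgeR adjusted p = 0.0151) and lost the call without library 11 (adjusted p = 0.0531) or without library 12 (adjusted p = 0.0820). Hspa1a was 2.91-fold and Hspa1b 2.97-fold higher without passing (edgeR adjusted p = 0.0801 and 0.0854), and both passed without library 7, 9, 10 or 17 (edgeR adjusted p 0.0315 to 0.0479). DESeq2 called Hspa1a (adjusted p = 0.0485). Bag3 differed by a log2 fold change of 0.13 ± 0.17 (SE; edgeR adjusted p = 0.578). With all 24 libraries Hsph1, Hsp90aa1 and Hsp90ab1 passed (edgeR adjusted p = 0.0485, 0.0479 and 0.00240), and Dnajb1, Hspa8 and Hspb1 did not, where 34.7% of tested genes passed. Summed levels of the neutrophil and macrophage markers were 1919 to 4524 CPM in CAST/EiJ and 587 to 754 CPM in C57BL/6J under BD, and all 7 were called higher. Those of the T and NK cell markers were 9.70 to 20.3 CPM in CAST/EiJ and 24.7 to 46.3 CPM in C57BL/6J, and 7 of the 8 were called lower. The part of these cells in the chaperone levels under BD was not tested.

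The difference of the BD response between the strains was tested as an interaction. Bag3 was called, with a log2 difference of 0.80 ± 0.24 (SE), CAST/EiJ minus C57BL/6J (edgeR adjusted p = 0.0274), where 10.2% of tested genes were called in this direction and 19.4% in either. It came from a log2 fold change of 0.27 ± 0.16 (SE) in CAST/EiJ and of -0.54 ± 0.18 (SE) in C57BL/6J, neither of which passed alone. The call ended without CAST/EiJ BD library 10 (edgeR adjusted p = 0.0530), without C57BL/6J clean-air library 4 (adjusted p = 0.0804), without the numbers over 100 (adjusted p = 0.208) and with the number series as a covariate (adjusted p = 0.187, or 0.0913 with RNA_106 kept). With all 24 libraries it passed, as did 11.7% of tested genes (log2 difference 0.89, edgeR adjusted p = 0.0211). Hspa8 and Hspb1 had log2 differences of -0.68 ± 0.32 and -0.65 ± 0.28 (SE) and did not pass (edgeR adjusted p = 0.135 and 0.110). Both passed without CAST/EiJ BD library 12 (edgeR adjusted p = 0.0403 and 0.0207).

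Genes that work with the members were counted from lists in the same 22-library fit, and in clean air the shares over all tested genes were 30.2% higher and 31.3% lower. In clean air, 8 of 9 subunits of TRiC, the chaperonin that folds actin and tubulin, were higher in CAST/EiJ and none was lower. Cct3 averaged 156 ± 14.6 CPM in CAST/EiJ (SD, n = 7) and 85.6 ± 5.80 CPM in C57BL/6J (SD, n = 4; edgeR adjusted p = 1.07e-08). Of 16 HSP90 co-chaperones 10 were higher and 2 lower, among them Ptges3, the co-chaperone p23, at 133 ± 16.6 CPM in CAST/EiJ (SD, n = 7) and 65.8 ± 3.28 CPM in C57BL/6J (SD, n = 4; edgeR adjusted p = 4.68e-09), and Ttc4, which was 1.39-fold lower (edgeR adjusted p = 8.95e-07). Fkbp5, an immunophilin of the steroid receptor complex with HSP90, averaged 114 ± 35.1 CPM in CAST/EiJ (SD, n = 7) and 18.6 ± 3.42 CPM in C57BL/6J (SD, n = 4; edgeR adjusted p = 5.70e-06).

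The chaperones of other compartments and the proteasome were also mostly higher in clean-air CAST/EiJ. Of 14 chaperones of the endoplasmic reticulum 11 were higher and 0 lower, of 12 mitochondrial chaperones 9 and 0, and of 31 proteasome subunits 27 and 1. Hspd1, the mitochondrial chaperonin HSP60, was 2.09-fold higher in CAST/EiJ (edgeR adjusted p = 4.39e-07), and the proteasome subunit Psmb1 2.16-fold (edgeR adjusted p = 3.37e-10). With the numbers over 100 left out, 8 TRiC subunits, 10 chaperones of the endoplasmic reticulum, 6 mitochondrial chaperones and 20 proteasome subunits were called higher. The cytosolic J proteins were mixed, with 7 of 18 higher and 4 lower, against 30.2% and 31.3% of all tested genes, and of 9 other small heat shock proteins Cryab, which encodes an alpha-crystallin found in many tissues, was higher and Cryaa, its lens partner, lower (edgeR adjusted p = 0.00137 and 3.06e-09). Of 8 other HSP70 and HSP110 chaperones 4 were higher and 0 lower. Among 8 HSP70 exchange and triage factors 5 were higher and 1, Bag6, was lower. With the numbers over 100 left out, 2 of these 8 were higher and 2 lower.

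Of 6 heat shock factor genes and binding partners 2 were higher in clean-air CAST/EiJ, a share near the 30.2% of all tested genes. They were Hsbp1, whose product binds HSF1 trimers (1.60-fold, edgeR adjusted p = 5.11e-08), and Hsf2bp (2.67-fold, edgeR adjusted p = 8.32e-05). Hsf2bp was low in both strains, at 1.49 ± 0.39 CPM in CAST/EiJ (SD, n = 7) and 0.54 ± 0.17 CPM in C57BL/6J (SD, n = 4). Hsf1 itself was between 21.6 and 28.8 CPM in all 24 libraries, at 27.7 and 26.9 CPM in CAST/EiJ BD libraries 11 and 12 and at 21.6 CPM in RNA_106. Both cold-inducible RNA-binding proteins were lower in clean-air CAST/EiJ. Cirbp averaged 36.6 ± 13.3 CPM in CAST/EiJ (SD, n = 7) and 66.6 ± 8.86 CPM in C57BL/6J (SD, n = 4; edgeR adjusted p = 0.00613), and Rbm3 averaged 67.4 ± 18.2 CPM and 92.8 ± 3.43 CPM in the same groups (edgeR adjusted p = 0.00519).

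Under BD in C57BL/6J, 14 of 31 proteasome subunits rose and none fell, where 5.25% of all tested genes rose, in a comparison that shares its clean-air libraries with the strain comparison. Psmc3 averaged 116 ± 5.34 CPM under BD (SD, n = 6) and 91.2 ± 7.54 CPM in clean air (SD, n = 4; edgeR adjusted p = 0.00718). Of TRiC subunits 2 of 9 rose, of chaperones of the endoplasmic reticulum 2 of 14, and of HSP90 co-chaperones 1 of 16, close to that share, Fkbp5, by 4.76-fold (edgeR adjusted p = 0.000759). Leaving out 1 library gave 3 to 18 proteasome subunits (3 without clean-air library 4), 0 to 3 TRiC subunits (0 without BD library 17) and 0 to 4 chaperones of the endoplasmic reticulum (0 without BD library 16). With the numbers over 100 left out the counts were 20, 3 and 6. With all 24 libraries 2 proteasome subunits, 0 TRiC subunits and 0 chaperones of the endoplasmic reticulum rose. Among the ubiquitin and aggregate genes, the autophagy receptor Sqstm1 rose by 1.37-fold (edgeR adjusted p = 0.00110) and Ubqln2, a ubiquilin, fell by 1.63-fold (edgeR adjusted p = 0.0315). The call of Ubqln2 was lost without BD library 15, 17 or 18 or clean-air library 4 or 5 (adjusted p 0.0543 to 0.166), with all 24 libraries (adjusted p = 0.0810) and with the numbers over 100 left out (adjusted p = 0.0515). Of 9 other small heat shock proteins 1 rose, Hspb8, a partner of BAG3, by 1.47-fold (edgeR adjusted p = 0.0102).

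Under BD in CAST/EiJ, Sqstm1 rose as well. It averaged 484 ± 45.7 CPM under BD (SD, n = 5) and 401 ± 45.9 CPM in clean air (SD, n = 7; edgeR adjusted p = 0.0242), and lost the call without BD library 9 (adjusted p = 0.0669) or with the compared groups alone (adjusted p = 0.101). In the same comparison 3 of 9 TRiC subunits, 5 of 14 chaperones of the endoplasmic reticulum and 5 of 31 proteasome subunits fell and none rose, where 5.35% of all tested genes fell. Leaving out 1 library gave 0 to 8, 2 to 9 and 0 to 12, the lowest counts being those without library 10. With the numbers over 100 left out, 0 TRiC subunits, 2 chaperones of the endoplasmic reticulum and 0 proteasome subunits fell. Among 18 cytosolic J proteins 2 rose and 0 fell under BD in CAST/EiJ, where 5.46% of all tested genes rose. For these J proteins, leaving out 1 library gave 1 to 3 that rose, and leaving out the numbers over 100 gave 0. The interaction was called negative for 8 of 9 TRiC subunits, 10 of 14 chaperones of the endoplasmic reticulum and 23 of 31 proteasome subunits. Over all tested genes 19.4% were called in either direction and 10.2% in the positive one. The negative calls of these lists were 5, 7 and 15 without clean-air library 4, and 0, 4 and 0 without the numbers over 100. With all 24 libraries they were 1, 5 and 14.

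**Figure D4:**
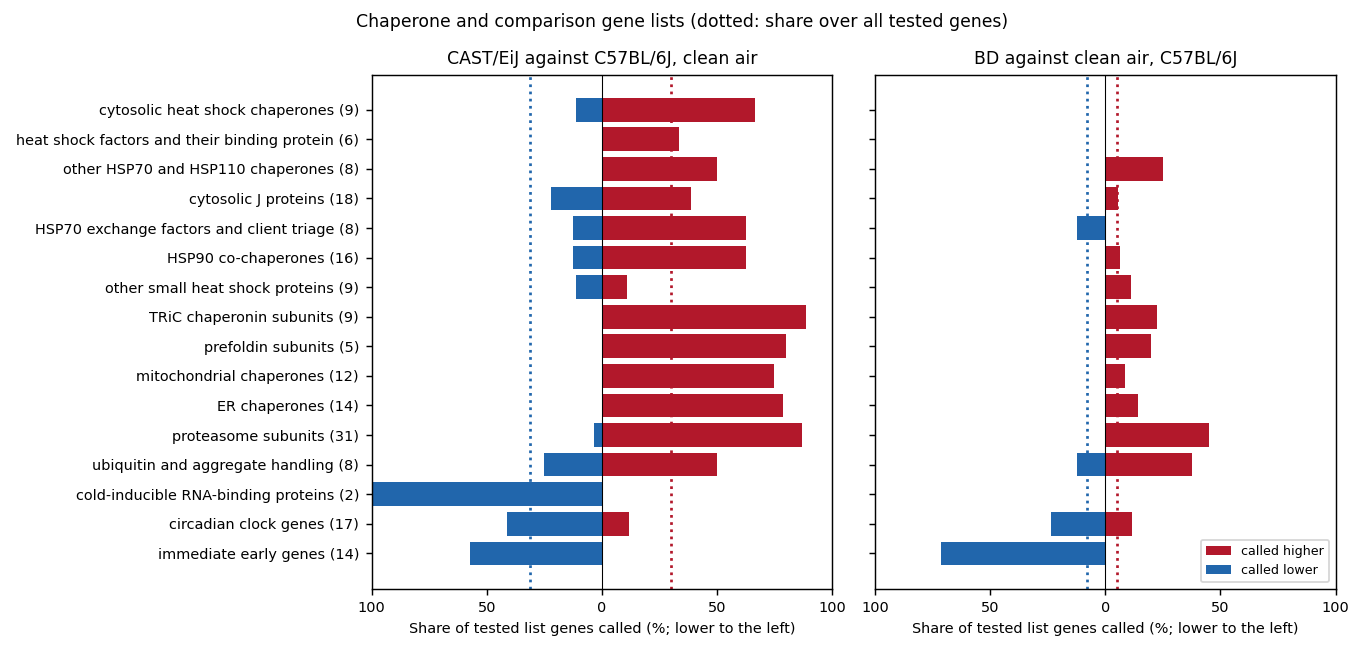
Share of the tested genes of each list that were called higher (red, to the right) or lower (blue, to the left), for the strains in clean air (CAST/EiJ over C57BL/6J) and for BD over clean air in C57BL/6J. Numbers in brackets are tested genes and dotted lines are the shares over all tested genes. TRiC and proteasome subunits were called higher in most cases in clean-air CAST/EiJ, and immediate early genes were called lower in 10 of 14 cases under BD.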

How the data were processed

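The series holds 24 RNA-seq, 20 small RNA and 24 ATAC-seq samples of mouse lung, and the RNA-seq samples were used. The deposited table held whole-number read counts per gene symbol in 23893 entries, 21 of them without a value in some library and left out. Reads were aligned with GSNAP to mm9, per the submitters' processing notes; counting tool, strandedness and versions are not given in the sources used here. Each column was matched to a sample by title. No 2 libraries of a group agreed within sampling noise (smallest chi-square per degree of freedom 5.20).

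Counts were fitted with edgeR 4.0.16 in R 4.3.3 (filterByExpr, TMM scaling, robust quasi-likelihood F tests, 1 mean per group over 22 libraries). P-values were adjusted by Benjamini-Hochberg over 17500 genes and called under 0.05. Levels are CPM, and correlations used log2 CPM with a prior count of 2. DESeq2 1.42.0, median-of-ratios factors, no filter, other library sets, the number series as a covariate, summed Hspa1a and Hspa1b, and each library left out were alternatives. The scripts were tested on simulated data. Named genes were the 9 members, up to 2 called genes per direction of each list and the 6 most similar genes; Hsf1 and the lone Bag6 were named besides, and 1 gene is not reported here. Members and lists were chosen with earlier results of these data known. RefSeq tables (GRCm38.p6) gave promoters and gene overlaps: only Hspa8 overlapped other annotated genes (Snord14c, Snord14d and Snord14e), and the strand of counting is unknown. Sequence positions of that build were not used with the counts.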

Additional observations from a re-analysis of the deposited data

Results flagged for a closer look

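In C57BL/6J clean air, library RNA_106 stood far from the other 4 libraries for 8 of 9 members. Its levels were 113 CPM for Hspa1a (4.29 to 8.94 CPM in the other 4), 132 CPM for Hspa1b (2.44 to 9.74), 138 CPM for Hsph1 (31.6 to 39.2) and 98.4 CPM for Dnajb1 (25.8 to 31.5). They were 931 CPM for Hspa8 (368 to 457), 493 CPM for Hsp90aa1 (179 to 225), 1016 CPM for Hsp90ab1 (571 to 692) and 72.3 CPM for Hspb1 (25.8 to 32.0). In each case the gap to the nearest library exceeded Dixon's 95% critical value. Such gaps were sought in 36 groups of values, where 1 in 20 is marked by chance, and found in these 8. The 8 come from 1 library and are not independent. The share of all tested genes with such a gap in RNA_106 was not counted. RNA_106 was kept apart for these same levels, so the gaps describe that choice and do not test it.

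The BD response of Bag3 differed between the strains, by a log2 difference of 0.80 (CAST/EiJ minus C57BL/6J; edgeR adjusted p = 0.0274, 0.0118 to 0.208 over the alternatives).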

How the results depend on the processing

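No paired analysis was possible because the numbers in the titles are not shared between groups, and replicates were otherwise numbered in accession order. Of 476 values under alternatives other than leaving out 1 library, 409 kept their direction and their side of the threshold. The member counts in the strain comparison in clean air and in BD against clean air in CAST/EiJ stayed within 1.5 times. For BD in C57BL/6J, members called were 1 with all 24 libraries, with only number 8 apart, with DESeq2 and with the number series as a covariate, with or without RNA_106, and 2 with the compared groups alone. Under BD between strains 3 members were called with all 24 libraries. The interaction called 0 members with the covariate, with it and RNA_106 kept, and without the numbers over 100. Genes called for BD in C57BL/6J numbered 2309 and were 1298 with all 24 libraries and 3575 with the compared groups alone. For BD in CAST/EiJ they numbered 1892 and were 159 with the compared groups alone, 687 with the covariate, 275 with the covariate and RNA_106 kept, 627 without the numbers over 100 and 1255 with only number 8 apart. For the interaction they numbered 3392 and were 2035 with all 24 libraries, 466 with the covariate, 84 with it and RNA_106 kept, 320 without the numbers over 100 and 1641 with only number 8 apart.

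Signs turned only in log2 values that had not been called. With RNA_106 kept, in all 24 libraries and with only number 8 apart, BD in C57BL/6J gave -1.46 and -1.47 for Hspa1a, -1.50 and -1.51 for Hspa1b, -0.39 and -0.39 for Hsph1, -0.25 and -0.25 for Dnajb1, -0.080 and -0.080 for Hsp90aa1, -0.12 and -0.12 for Hsp90ab1, and -0.064 and -0.066 for Hspb1. The strain difference in clean air was -0.65 and -0.65 for Hspa1a and -0.65 and -0.65 for Hspa1b. The interaction was 2.02 and 2.23 for Hspa1b, 0.35 and 0.45 for Hsph1, and 0.35 and 0.46 for Dnajb1, and 0.040 for Hsp90ab1 with only number 8 apart. With the covariate and RNA_106 kept, BD in C57BL/6J gave -0.42 for Hspa1a, -0.38 for Hspa1b, -0.32 for Hsph1, -0.0044 for Dnajb1 and -0.12 for Hsp90ab1, and BD in CAST/EiJ 0.068 for Hspa8. The strain difference in clean air was then -0.58 for Hspa1a and -0.48 for Hspa1b, and the interaction was 2.06 for Hspa1b, 0.47 for Hsph1, 0.61 for Dnajb1 and 0.036 for Hsp90ab1. BD in CAST/EiJ gave -0.041 for Hsph1 with all 24 libraries and with only RNA_106 apart, and -0.55 without the numbers over 100 and with the covariate. For these turns the cause was not tested beyond the libraries each setting adds or leaves out.

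Leaving out each library in turn, genes called ranged over 991 to 2640 for BD in C57BL/6J, 835 to 3494 for BD in CAST/EiJ, 9784 to 11073 between strains in clean air, 6975 to 7884 between strains under BD and 1692 to 4701 for the interaction. Members called ranged over 0 to 1, 0 to 0, 7 to 7, 5 to 8 and 0 to 3 in the same order. The log2 values whose sign turned ranged over -0.34 to 0.26 for Hsph1, -0.069 to 0.38 for Dnajb1 and -0.18 to 0.020 for Hsp90ab1 under BD in CAST/EiJ, and over -0.030 to 0.25 for Bag3 between strains under BD. For the interaction they ranged over -0.42 to 0.66 for Hspa1a, -0.64 to 0.51 for Hspa1b, -0.59 to 0.0027 for Hsph1 and -0.40 to 0.049 for Dnajb1. On depth, the least counted member, Hspa1b, had at least 33 counts in every library, and its SD of log2 CPM within groups was 1.24.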
